A study of Mus musculus with 16 samples.

Results

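The genes described are 35 genes of cholesterol and fatty acid synthesis and of the sterol sensor that controls them, measured in cultured mouse cortical astrocytes and neurons with and without secreted Klotho, on one-colour microarrays. Klotho is a membrane protein whose secreted form circulates in blood. They were chosen by name, through the RefSeq accession of their array probes, and are 35 of the 21368 named genes on the array. By role they are 5 regulators, 1 sterol transfer gene, 7 genes of the mevalonate arm, 11 genes that carry squalene to cholesterol, 3 genes that supply acetyl-CoA or NADPH, and 8 genes of fatty acid synthesis, desaturation and elongation. The 18 genes of the mevalonate and squalene arms are together called the cholesterol arm.

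There were 4 groups of 4 arrays: astrocytes with Klotho, astrocytes with vehicle, neurons with Klotho and neurons with vehicle. All cells came from C57BL/6 mice. Klotho was recombinant secreted protein at 1 nM, the controls received PBS, and both exposures lasted 24 h. Neurons were prepared from cortex at embryonic day 16 and treated after 14 days in vitro in Neurobasal medium with B27. Astrocytes were grown from newborn pups in DMEM with serum and purified by shaking, although their sample labels also carry the embryonic age. Whether each array stands for its own culture is not stated, and the p-values therefore rest on the spread between these samples only, which may be technical. Cell type goes with slide, medium and age of the animals, and these cannot be told apart. In bulk RNA, fewer cells of a type and less RNA per cell cannot be told apart either.

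Cells build cholesterol from acetyl-CoA through mevalonate, the isoprenoid farnesyl diphosphate, squalene and lanosterol. Fatty acids start from the same acetyl-CoA. Both sets of enzyme genes are switched on by SREBP transcription factors, which are held in the endoplasmic reticulum by the Scap and Insig proteins while membrane sterol is plentiful, and are carried by Scap to the Golgi and cut free when it is scarce. Brain cholesterol is made within the brain, since lipoproteins of the blood do not cross the barrier, and both astrocytes and developing neurons make it.

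Levels are log2 signals relative to the 75th percentile of each array, so a level of 0 is that percentile. Levels of different genes come from different probes and are not set against each other. Spots well above background made up 62.1% ± 3.99 of spots in astrocyte Klotho arrays, 64.3% ± 2.04 in astrocyte control arrays, 59.4% ± 1.80 in neuron Klotho arrays and 66.6% ± 1.08 in neuron control arrays (SD, n = 4 each). All 35 genes were above background on all 16 arrays, so a filter on dim probes removed none of them. Each gene is represented by its brightest probe. For 14 genes there was more than 1 probe.

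The deposit assigns the astrocyte arrays in conflicting ways. In the value table of the authors, 6 of the 8 astrocyte columns match the scanner file of another sample, and 4 arrays thereby have the other treatment. The astrocyte Klotho comparison is therefore given in both ways, by scanner file and by value table. Under the first the Klotho arrays lay on slide 3 and the control arrays on slide 2. Under the second the Klotho arrays lay in slide column 4 and the control arrays in column 3. Treatment cannot be told apart from slide in the first way or from slide column in the second. All neuron arrays lay on slide 1, with Klotho in row 2 and control in row 1, so treatment and row cannot be told apart there.

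The labelled cell types were checked against marker lists, each summed on the linear scale and given as log2 of the sum. The neuron list stood at 5.00 to 6.69 on the astrocyte arrays and 8.89 to 9.37 on the neuron arrays. Of its 13 genes, 9 to 10 were above background on single astrocyte Klotho arrays and 9 to 11 on astrocyte control arrays. The astrocyte cultures thus also held neuron transcripts, while Slc17a7 and Nefl were above background on no astrocyte array. The astrocyte list stood at 8.49 to 9.23 on the astrocyte arrays and 7.22 to 8.0 on the neuron arrays, so the neuron cultures also held astrocyte transcripts. The microglia list stood at 7.23 to 8.14 on the astrocyte arrays and 5.19 to 5.53 on the neuron arrays. The part of these other cells in the results below was not tested.

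**Figure D1:**
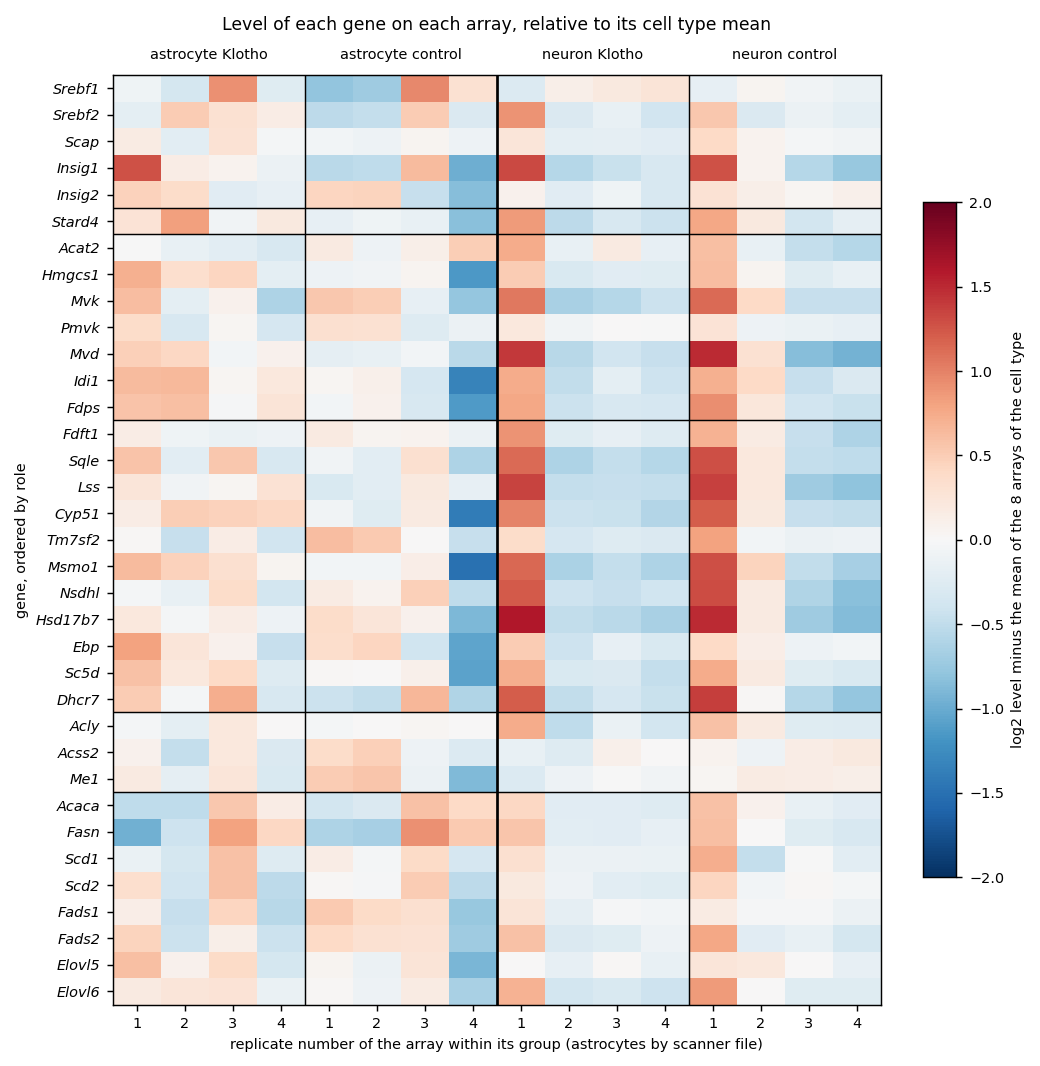
Each row is a gene, grouped by role, and each column an array, with the replicate number below (astrocytes by scanner file). Colour is the log2 level minus the mean of the 8 arrays of the same cell type. Replicate 1 of both neuron groups is red through the cholesterol arm, where it was the highest array of its group for 18 of 18 genes, and astrocyte control replicate 4 is blue for most genes.

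In neurons, replicate 1 stood apart from the other arrays in the cholesterol arm. Replicate 1 was the highest of the 4 Klotho arrays for 31 of the 35 genes and the highest of the 4 control arrays for 32 of 35, and for 18 of 18 genes of the cholesterol arm in each group. Over all 24705 transcripts tested in neurons the same array was highest in 42.6% and 43.0%. It was the lowest of its group for 10073 and 9432 of these transcripts, and for 2 of the 35 genes in each group. Replicate 1 was thus an outermost array for most transcripts, in either direction, and not in these genes alone. Both replicate 1 arrays lay above the other 6 neuron arrays for 30 of the 35 genes, against 28.1% of all transcripts. These counts describe 2 arrays and carry no test. Both arrays lay in column 1 of the slide, so replicate 1 and slide column cannot be told apart.

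Mvd, which encodes mevalonate diphosphate decarboxylase, had levels of 3.67, 1.70, 1.88 and 1.80 on Klotho arrays 1 to 4 and 3.75, 2.56, 1.40 and 1.31 on control arrays 1 to 4. Hsd17b7, a reductase of sterol intermediates, had 1.71, -0.39, -0.44 and -0.55 with Klotho and 1.59, 0.28, -0.61 and -0.77 in control. Lss, lanosterol synthase, had 0.77, -1.05, -1.04 and -1.06 with Klotho and 0.78, -0.37, -1.28 and -1.39 in control. In these 3 genes replicate 1 stood far above the other replicates under both treatments, and the Klotho and control values overlapped.

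The gap between replicate 1 and the mean of the other 3 replicates was 1.87 with Klotho and 2.00 in control for Mvd, 2.17 and 1.96 for Hsd17b7, and 1.82 and 1.80 for Lss. Over the cholesterol arm the median gap was 1.30 log2 units with Klotho and 1.22 in control. Over all transcripts it was 0.01 and 0.04, with gaps of both signs, from -5.65 to 4.85 with Klotho and from -4.86 to 3.31 in control. Fatty acid genes had a smaller gap, with medians of 0.55 and 0.73. Fasn, the fatty acid synthase that builds palmitate, stood at 1.20, 0.43, 0.41 and 0.47 with Klotho and 1.24, 0.64, 0.39 and 0.32 in control.

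The sterol sensor followed the same array. Insig1, which holds Scap in the endoplasmic reticulum and is itself an SREBP target, had 0.60, -1.28, -1.16 and -1.04 with Klotho and 0.56, -0.63, -1.27 and -1.47 in control. Srebf2, the SREBP that mainly drives cholesterol genes, had 1.53, 0.34, 0.48 and 0.26 with Klotho and 1.17, 0.34, 0.52 and 0.44 in control. Srebf1, the SREBP that mainly drives fatty acid genes, went the other way, with -1.08, -0.68, -0.62 and -0.54 with Klotho and -0.97, -0.75, -0.88 and -0.93 in control. Acss2, Me1, Insig2 and Elovl5 were the other genes for which the 2 replicate 1 arrays were not the highest pair of the 8.

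Control replicate 2 held a middle place among the neuron controls. It lay above the mean of control replicates 3 and 4 for 18 of 18 genes of the cholesterol arm, by a median of 0.69, against 48.1% of all transcripts. Msmo1, the methylsterol oxidase, had 6.18, 5.34, 4.39 and 4.23 on control arrays 1 to 4, and Klotho replicate 2, at 4.25, showed no such place. The plot of single genes by array shows this order for Mvd, Dhcr7 and Insig1.

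Some marker lists moved with the replicate 1 arrays. The neuron list stood at 9.27 on Klotho replicate 1 against 8.94 to 9.02 on the other Klotho arrays, and at 9.37 on control replicate 1 against 8.89 to 8.98 on the other controls. The astrocyte list stood at 7.22 against 7.71 to 7.77 with Klotho, and at 7.58 against 7.84 to 8.0 in control. The oligodendrocyte lineage list stood at 6.55 against 6.84 to 7.08 with Klotho, and at 6.52 against 6.94 to 7.30 in control. The meningeal fibroblast list stood at 3.31 against 3.62 to 3.83 with Klotho, and at 3.51 against 3.69 to 3.87 in control. The astrocyte, oligodendrocyte lineage and meningeal fibroblast lists were thus lowest where the cholesterol genes were highest. The microglia list was not, at 5.47 against 5.39 to 5.53 with Klotho and 5.35 against 5.19 to 5.29 in control. The part of cell makeup in the gap was not tested.

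Promoter sequences were looked up for all 35 genes, from RefSeq on build GRCm38.p6, as the 250 bases before the gene start. A promoter was found for 28 of the 35 genes. The best known SREBP site was searched as TCACNCCA or its reverse complement TGGNGTGA. It was present in 3 of the 28 promoters (10.7%), against 4.20% of the 27025 genes in the table and 4.03% of protein-coding genes. The letters of the site vary between SREBP targets, so its absence from a window says only that these letters are not there. The 3 promoters are shown 5′ to 3′ on the strand of the gene, with that site and every CCAAT box (CCAAT or ATTGG, the site of the co-factor NF-Y) in capitals.
Srebf2, chr15:82147019-82147268, plus strand: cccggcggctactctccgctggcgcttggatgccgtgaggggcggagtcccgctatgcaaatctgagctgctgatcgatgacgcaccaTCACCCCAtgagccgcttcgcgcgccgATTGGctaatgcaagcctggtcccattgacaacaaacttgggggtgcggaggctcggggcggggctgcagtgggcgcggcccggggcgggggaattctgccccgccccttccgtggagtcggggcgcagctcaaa
Hmgcs1, chr13:119690101-119690350, plus strand: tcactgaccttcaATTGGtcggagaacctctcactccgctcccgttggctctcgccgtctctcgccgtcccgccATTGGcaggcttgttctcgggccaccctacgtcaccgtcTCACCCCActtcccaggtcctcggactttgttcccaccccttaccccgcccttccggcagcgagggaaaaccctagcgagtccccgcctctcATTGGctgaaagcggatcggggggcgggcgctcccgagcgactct
Msmo1, chr8:64733579-64733828, minus strand: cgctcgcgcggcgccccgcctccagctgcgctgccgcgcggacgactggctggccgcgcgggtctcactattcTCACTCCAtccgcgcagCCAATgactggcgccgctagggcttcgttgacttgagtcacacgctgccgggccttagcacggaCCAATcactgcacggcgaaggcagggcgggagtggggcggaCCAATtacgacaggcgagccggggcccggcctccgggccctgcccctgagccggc

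In all 3 windows the TCACNCCA match lies on the strand of the gene. It starts 162 bases before the gene start in Srebf2, 137 in Hmgcs1 and 177 in Msmo1. A CCAAT box was present in 22 of the 28 promoters (78.6%), against 37.5% of all genes and 39.5% of protein-coding genes. The GC box GGGCGG or CCGCCC, the site of Sp1, was present in 23 of the 28 (82.1%), against 35.4% of all genes and 45.8% of protein-coding genes. The E-box CACGTG can be bound by SREBP-1 and other factors. It was present in 6 of the 28 (21.4%), against 6.86% of all genes and 7.61% of protein-coding genes. The 6 were Dhcr7, Elovl5, Hsd17b7, Insig1, Sc5d and Scap. TCACNCCA and CCAAT can share the letters CCA, which did not occur in the windows shown, and a match is a description of the sequence only.

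**Figure D2:**
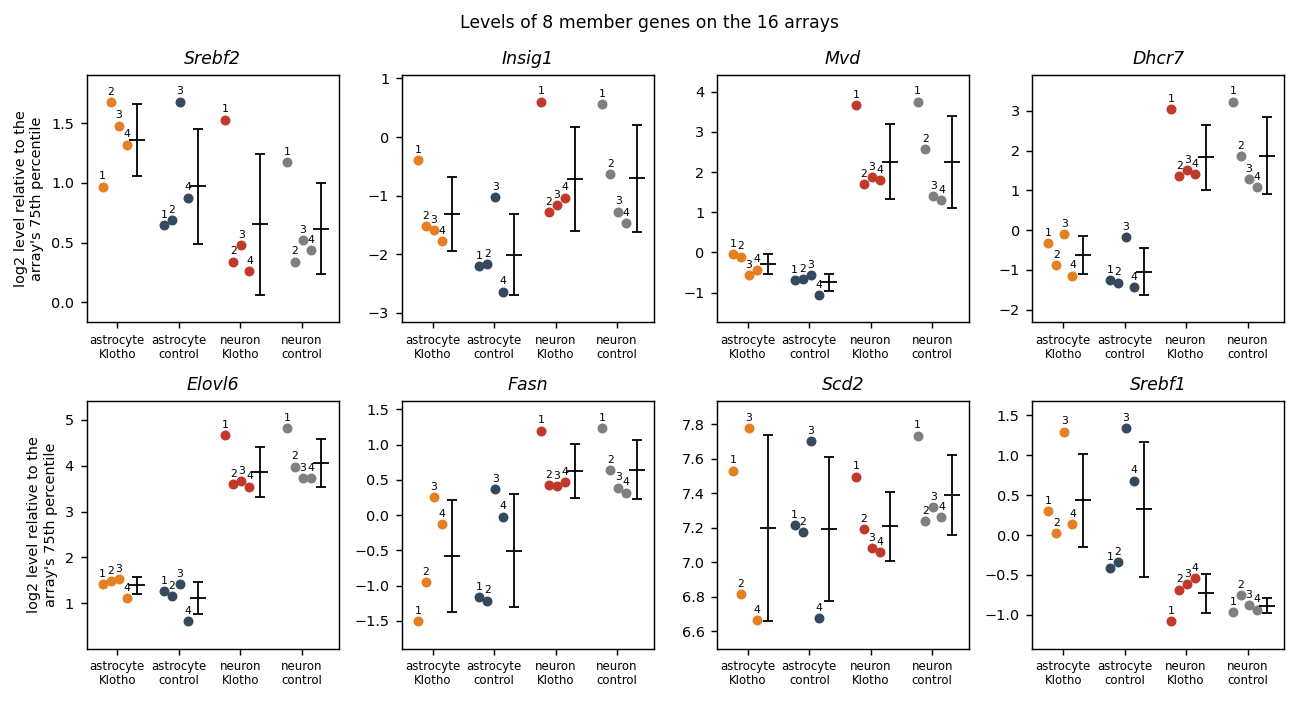
Levels of 8 genes on the 16 arrays, as log2 relative to the array's 75th percentile. Points are arrays with their replicate number, and the bars beside them are the group mean ± SD (n = 4). In Mvd, Dhcr7, Insig1, Srebf2, Fasn, Elovl6 and Scd2 neuron replicate 1 stands above the other neuron arrays under both treatments, and Mvd, Dhcr7 and Elovl6 are lower on every astrocyte array than on any neuron array.

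Klotho against vehicle in neurons changed none of the 35 genes by limma (0 called, smallest adjusted p = 0.988). Over all transcripts 37 (0.150%) were called, all of them lower with Klotho. The median log2 change of the 35 genes was -0.15, with a range of -0.30 to 0.31, and over all transcripts the median was -0.03. A positive change was found for 7 of the 35 genes, against 43.0% of all transcripts. With the replicate number as a block, which pairs arrays of the same number, 24 transcripts were called and again 0 of the 35 genes.

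An unadjusted p below 0.05 was found for 2 of the 35 genes, against 4.30% of all transcripts. Me1, the cytosolic malic enzyme that supplies NADPH for lipid synthesis, had 3.13, 3.31, 3.39 and 3.33 on the Klotho arrays and 3.45, 3.57, 3.56 and 3.52 on the control arrays. Each Klotho value lay below each control value, which was so for this 1 gene of the 35 and for 2.83% of all transcripts. Its log2 change was -0.23 ± 0.10 (SE, unadjusted p = 0.0400, adjusted p = 0.988, limma), and its probes differed in sign. Insig2, the second Insig gene, had 2.16, 1.85, 2.00 and 1.76 with Klotho and 2.38, 2.20, 2.13 and 2.19 in control, with overlap between the groups and a log2 change of -0.28 ± 0.12 (SE, adjusted p = 0.988, limma).

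The neuron median depended on single arrays and changed sign without control replicate 1. Without Klotho replicate 1 it was -0.39, with 3 of 35 changes positive. Without control replicate 1 it was 0.09, with 27 of 35 positive. Without both it was -0.14, and 0 genes were called each time. In the authors' table of scaled values the median was 0.01.

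A list of adult liver transcripts also differed between the neuron groups, at 2.36 to 2.66 on the Klotho arrays and 3.26 to 3.99 on the control arrays. Of its 12 genes, 5 were above background on no neuron Klotho array (Alb, Ahsg, Apoa1, Fgg and Mup18), and 0 on no neuron control array. The part of this signal in the change of the 35 genes was not tested.

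In astrocytes, Klotho against vehicle by scanner file changed none of the 35 genes by limma (0 called, against 0% of 23564 transcripts), and 21 of 35 changes were positive, against 49.0% of all transcripts. The median was 0.12, with a range of -0.35 to 0.77, and over all transcripts it was -0.01. In the cholesterol arm 12 of 18 changes were positive, with a median of 0.31. In the fatty acid genes 3 of 8 were positive, with a median of -0.08.

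An unadjusted p below 0.05 was found for 2 of the 35 genes, against 3.77% of all transcripts. Fdps, farnesyl diphosphate synthase, had 3.46, 3.48, 2.86 and 3.15 on the Klotho arrays and 2.83, 2.97, 2.56 and 1.75 on the control arrays. The groups overlapped, and the change was 0.71 ± 0.31 (SE, adjusted p = 1.00, limma). Stard4, which carries sterol between membranes, had 0.44, 0.99, 0.10 and 0.37 with Klotho and 0.01, 0.09, 0.02 and -0.67 in control. Its Klotho values all exceeded those in control, as in 1.10% of all transcripts, with a change of 0.61 ± 0.27 (SE, adjusted p = 1.00, limma).

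Control replicate 4 was the lowest of the astrocyte controls for 26 of the 35 genes, against 24.9% of all transcripts. Idi1, the isomerase that activates the isoprene unit, stood at 1.87, 1.94, 1.51 and 0.50 on control arrays 1 to 4, and Cyp51, the lanosterol demethylase, at -0.62, -0.80, -0.36 and -1.95. Without that array the median of the 35 genes was 0.08, without Klotho replicate 3 it was 0.07, and without control replicate 3 it was 0.21.

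By value table the same 8 arrays gave mostly negative changes. The 14 changes that were negative by scanner file were negative here too, and of the 21 that were positive there 1 stayed so. Of the 35 genes 1 had a positive change (Stard4, 0.05), against 42.1% of all transcripts, and the median was -0.39 against -0.05 over all transcripts. Limma again called 0 of the 35 genes and 0% of 23610 transcripts, while 6 genes had an unadjusted p below 0.05, against 2.48% of transcripts. These were Scd2 (-0.72 ± 0.22), Sqle (-0.68 ± 0.22), Fads1 (-0.70 ± 0.28), Elovl5 (-0.66 ± 0.26), Fads2 (-0.63 ± 0.25) and Dhcr7 (-0.73 ± 0.30, SE). They encode a stearoyl-CoA desaturase, squalene epoxidase, a desaturase and an elongase of polyunsaturated fatty acids with a further desaturase, and the reductase of the last step to cholesterol. In Scd2 and Sqle the 4 arrays assigned to Klotho lay below the 4 assigned to control, which was so in 1.10% of all transcripts.

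The array labelled control replicate 4 by scanner file counts as Klotho by value table. Without it the value-table median was -0.23. On the 4 arrays whose treatment is the same in both sources, the median of the 35 genes was -0.22. Of the 35 genes 0 were called, against 0.0884% of 24882 transcripts. By scanner file these are control replicates 1 and 3 (slide 2, column 3) and Klotho replicates 2 and 4 (slide 3, column 4). Treatment, slide and slide column cannot be told apart there. The difference between the astrocyte and the neuron response, tested as an interaction, was called for 0 of the 35 genes, against 0.0881% of 26111 transcripts (limma). Its median over the 35 genes was 0.27 by scanner file and -0.23 by value table. An unadjusted p below 0.05 was found for 0 of the 35 genes, against 5.26% of all transcripts.

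**Figure D3:**
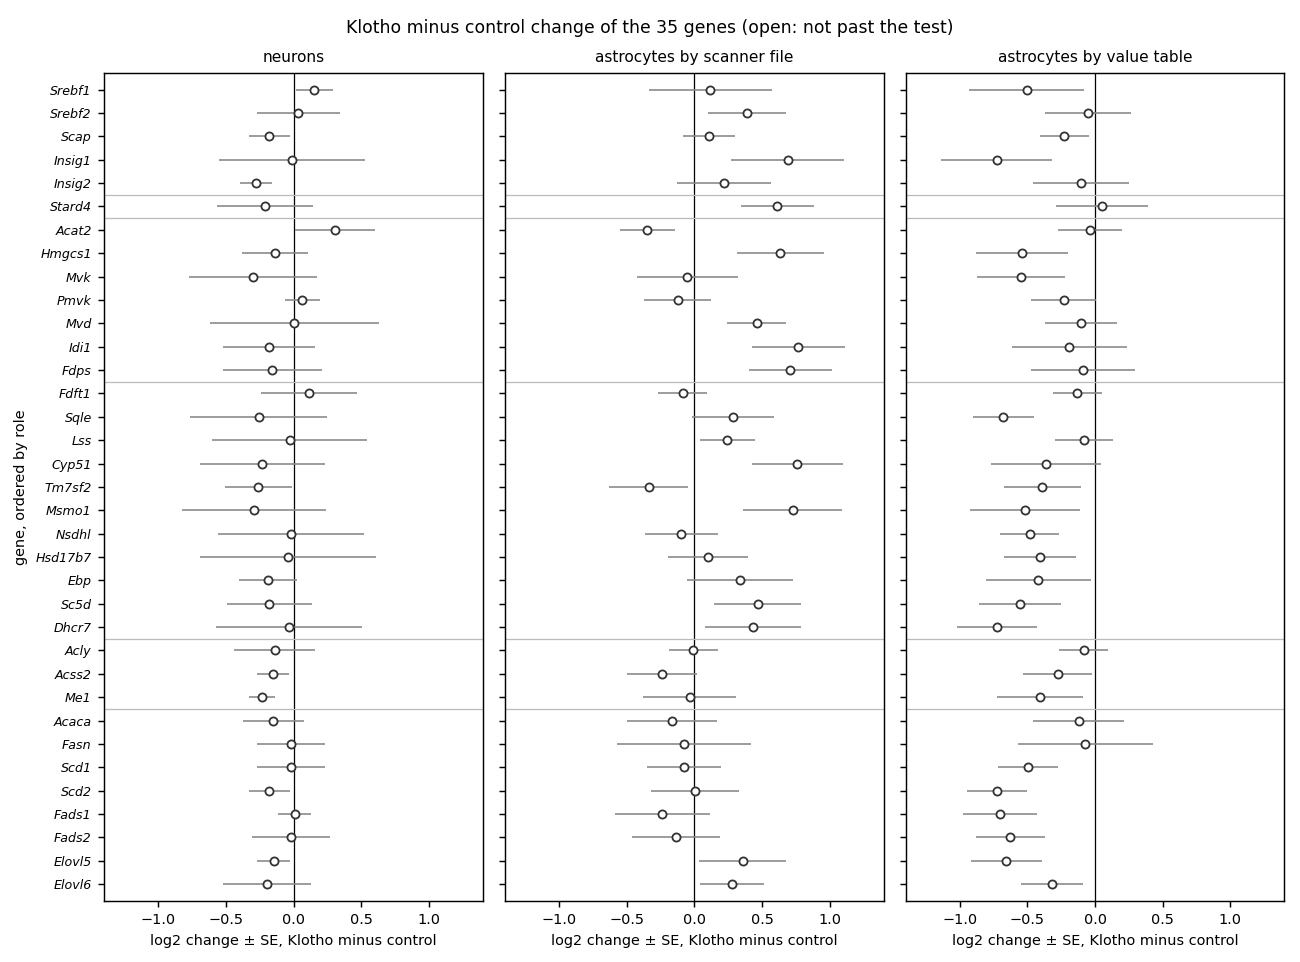
Klotho minus control log2 change of each of the 35 genes, grouped by role, with bars of ± SE. The panels show neurons, astrocytes by scanner file and astrocytes by value table. All points are open because 0 genes passed the test, and the medians are -0.15, 0.12 and -0.39.

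In the cholesterol arm, limma called 13 of 18 genes lower in astrocyte than in neuron arrays, and 0 higher. This was so between Klotho arrays and between control arrays, where 36.2% and 30.9% of all transcripts were lower. Differences were positive for 4 of the 18 genes between Klotho arrays and for 1 between control arrays. Between the Klotho arrays 3 of the 35 genes were higher in astrocytes and 16 lower by limma, and over all transcripts 27.6% were higher and 36.2% lower (63.8% in all). Between the control arrays 2 were higher and 17 lower, and over all transcripts 22.3% were higher and 30.9% lower (53.2% in all). The median log2 difference of the 35 genes was -0.60 between Klotho arrays and -1.04 between control arrays, against -0.19 and -0.22 over all transcripts. In either direction 54.3% of the 35 genes were called in each comparison, against those 63.8% and 53.2% of all transcripts. The same 16 genes were lower and the same 2 higher in both comparisons. The share of all transcripts called alike in both is not given here.

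The mevalonate arm was lower throughout, with 7 of 7 genes called in each comparison. None of the 7 overlapped between the groups, and over all transcripts astrocytes lay wholly below in 33.4% between Klotho arrays and 32.1% between control arrays. Hmgcs1, which makes HMG-CoA, had 5.37, 5.00, 5.09 and 4.47 in astrocyte Klotho arrays and 7.50, 6.68, 6.76 and 6.75 in neuron Klotho arrays, a difference of -1.94 ± 0.26 (SE, adjusted p = 0.000112, limma). In control arrays it had 4.56, 4.59, 4.71 and 3.52 in astrocytes and 7.61, 7.04, 6.76 and 6.84 in neurons, which was 6.56-fold lower (adjusted p = 9.09e-05, limma). Even the highest astrocyte array lay below the lowest neuron array by more than a log2 unit.

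Mvd averaged -0.29 ± 0.26 in astrocyte Klotho arrays and 2.26 ± 0.94 in neuron Klotho arrays (SD, n = 4 each), and -0.75 ± 0.22 in astrocyte control arrays and 2.26 ± 1.15 in neuron control arrays. The differences were -2.55 ± 0.41 with Klotho and -3.01 ± 0.51 in control (SE, adjusted p = 0.000426 and 0.000950, limma). Fdps was 4.24-fold lower in astrocytes with Klotho and 7.73-fold lower in control. Pmvk, phosphomevalonate kinase, and Acat2, the thiolase that joins acetyl-CoA units, differed by -1.84 ± 0.20 and -2.02 ± 0.23 with Klotho and by -1.65 ± 0.21 and -1.37 ± 0.29 in control.

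From squalene to cholesterol, 6 of 11 genes were lower in astrocytes in each comparison: Fdft1, Lss, Cyp51, Tm7sf2, Nsdhl and Dhcr7. Of all transcripts, 36.2% were lower between Klotho arrays and 30.9% between control arrays. Between Klotho arrays, second probes differed by -0.33 for Fdft1 and -0.89 for Nsdhl, against -1.37 and -1.89 for the probes used. That of Tm7sf2 differed by -1.84, against -1.57. Dhcr7 had -0.33, -0.88, -0.11 and -1.15 in astrocyte Klotho arrays and 3.05, 1.36, 1.51 and 1.41 in neuron Klotho arrays. In control arrays it had -1.26, -1.32, -0.17 and -1.44 in astrocytes and 3.23, 1.87, 1.29 and 1.08 in neurons. Its differences were -2.45 ± 0.40 and -2.92 ± 0.49 (SE, adjusted p = 0.000964 in control, limma), without overlap. Astrocytes lay wholly below in 33.4% of all transcripts between Klotho arrays and 32.1% between control arrays.

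The other 5 genes of that arm, Sqle, Msmo1, Hsd17b7, Ebp and Sc5d, did not pass in either comparison. Sqle, the squalene epoxidase, had 5.77, 4.99, 5.73 and 4.89 in astrocyte Klotho arrays and 6.55, 4.81, 4.94 and 4.86 in neuron Klotho arrays. In control arrays it had 5.13, 4.99, 5.53 and 4.59 in astrocytes and 6.71, 5.63, 4.94 and 4.92 in neurons. Both neuron replicate 1 arrays lay above all astrocyte arrays, and the other 6 neuron arrays lay within the astrocyte range.

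Among fatty acid genes, 2 of 8 were lower in astrocytes in each comparison, a share below the 36.2% and 30.9% of all transcripts that were lower between Klotho and between control arrays. Elovl6, which lengthens palmitate, had 1.42, 1.49, 1.53 and 1.11 in astrocyte Klotho arrays and 4.66, 3.59, 3.66 and 3.54 in neuron Klotho arrays, a difference of -2.47 ± 0.27 (SE, adjusted p = 2.66e-05, limma). In control arrays it was 7.71-fold lower (adjusted p = 3.78e-05, limma). Fasn differed by -1.21 ± 0.38 with Klotho and -1.15 ± 0.40 in control (SE, adjusted p = 0.0183 and 0.0376, limma). Scd2, the main brain desaturase of this family, had 7.53, 6.82, 7.78 and 6.67 in astrocyte Klotho arrays and 7.50, 7.19, 7.08 and 7.06 in neuron Klotho arrays, with the groups overlapping and no call.

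Of the 5 regulators 2 were higher in astrocytes in each comparison, Scap and Srebf1, and 0 were lower, where 27.6% of all transcripts were higher between Klotho arrays and 22.3% between control arrays. Scap, the sterol sensor that escorts SREBP, had 6.35, 5.98, 6.47 and 6.15 in astrocyte Klotho arrays and 5.44, 5.00, 5.02 and 4.97 in neuron Klotho arrays, and 6.12, 6.07, 6.25 and 6.08 in astrocyte control arrays and 5.59, 5.27, 5.15 and 5.13 in neuron control arrays. It was higher in astrocytes by 1.13 with Klotho and by 0.85 ± 0.18 in control (SE, adjusted p = 0.00359 in control, limma). Scap did not overlap in either comparison, and astrocytes lay wholly above in 26.0% of all transcripts with Klotho and 22.5% in control. Srebf1 was higher by 1.17 with Klotho and by 1.20 ± 0.38 in control (SE, adjusted p = 0.0253 in control, limma). Insig1 differed by -1.31 ± 0.50 in control arrays and missed the threshold (adjusted p = 0.0515, limma). Srebf2 and Insig2 did not pass in either comparison. For Srebf2 the probe used differed by 0.71 with Klotho and 0.36 in control. Its second probe differed by 1.21 and 1.13, and whether that probe would pass was not tested.

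Acly, which cleaves citrate into acetyl-CoA, was lower in astrocytes in both comparisons, by a log2 difference of -1.04 ± 0.23 between control arrays (SE). With quantile normalization that difference was -0.63 and both calls were lost (adjusted p = 0.0619 between control arrays and 0.0583 between Klotho arrays, limma). Stard4 was lower between control arrays (-1.25 ± 0.30, adjusted p = 0.00662, limma) and had -0.42 ± 0.33 between Klotho arrays (adjusted p = 0.285, limma). Me1 was higher between Klotho arrays alone (0.78 ± 0.18, adjusted p = 0.00443, limma). The interaction called neither gene.

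Calls near the threshold depended on single arrays. Between control arrays, Fasn lost its call without any 1 neuron replicate or without astrocyte replicate 1 or 2, with adjusted p up to 0.103. Srebf1 lost it without neuron replicate 1, 3 or 4 or astrocyte replicate 4 (up to 0.0616), and Lss without neuron replicate 2 or astrocyte replicate 1 or 4 (up to 0.0668). Between Klotho arrays, Lss lost its call without astrocyte replicate 2 or 3 (up to 0.0672) and Fasn without neuron replicate 1 or astrocyte replicate 2 (up to 0.0539). With astrocyte arrays taken by value table, 2 genes were higher and 18 lower between Klotho arrays, and 3 higher and 16 lower between control arrays.

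**Figure D4:**
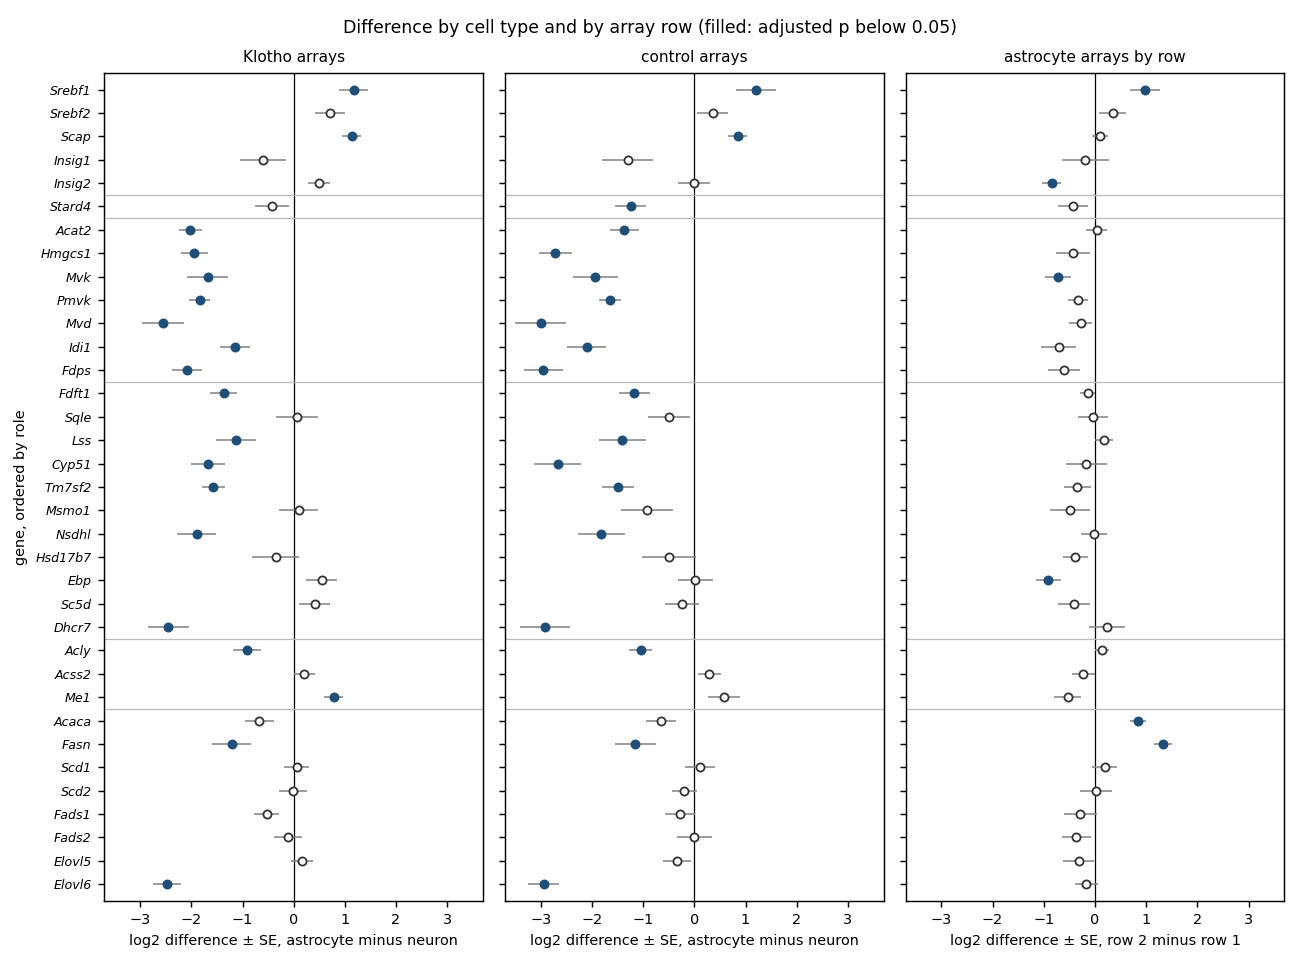
Log2 difference ± SE of each of the 35 genes, filled where the adjusted p is below 0.05. The first panel is astrocyte minus neuron between Klotho arrays, the second the same between control arrays, and the third astrocyte arrays of slide row 2 minus row 1. The 7 genes of the mevalonate arm are filled and below 0 in both cell type panels, and Fasn and Acaca are filled and above 0 in the row panel, where Acaca loses its call with median centring.

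Among astrocyte arrays, 6 of the 35 genes differed by the row of the array on its slide. Each row holds 2 Klotho and 2 control arrays by scanner file, replicates 3 and 4 in row 2 and replicates 1 and 2 in row 1, so row and replicate number cannot be told apart. Of the 35 genes 3 were higher and 3 lower in row 2 than in row 1 by limma, against 20.9% and 24.9% of all transcripts (45.9% in all). The share of the 35 genes that differed was thus below that of all transcripts.

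Fasn had 0.26 and -0.13 on the Klotho arrays and 0.37 and -0.02 on the control arrays of row 2, against -1.51, -0.96, -1.16 and -1.21 in row 1. Row 2 was higher by 1.33 ± 0.18 (SE, adjusted p = 0.00356, limma). Acaca, the acetyl-CoA carboxylase that commits acetyl-CoA to fatty acids, had 4.08, 3.69, 4.13 and 3.95 in row 2 and 3.04, 3.03, 3.17 and 3.26 in row 1, and was higher by 0.84 ± 0.15 (SE, adjusted p = 0.00397, limma). With arrays centred on their median, Acaca differed by 0.40 and lost its call (adjusted p = 0.159, limma). With the 75th percentile the rows did not overlap in either gene, an arrangement with row 2 above found in 18.1% of all transcripts.

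Srebf1 was higher in row 2 by 0.97 ± 0.30, with overlap (SE, adjusted p = 0.0253, limma). Insig2, which had 2.10, 2.16, 1.86 and 1.47 in row 2 and 2.78, 2.68, 2.75 and 2.76 in row 1, was lower, by a log2 difference of -0.85 ± 0.18 (SE, adjusted p = 0.00584, limma). Its rows did not overlap, with row 2 below, as in 23.7% of all transcripts. Ebp, the sterol isomerase, was lower, by a log2 difference of -0.91 ± 0.25 and Mvk, mevalonate kinase, by -0.73 ± 0.26 (SE, adjusted p = 0.0158 and 0.0433, limma). Srebf1 lost its call without control replicate 1, 2 or 3 or Klotho replicate 3 (adjusted p up to 0.0730). Mvk lost it without any 1 control replicate or without Klotho replicate 1 or 4 (up to 0.117). With median centring Srebf1 differed by 0.53 (adjusted p = 0.146, limma). With quantile normalization Ebp differed by -0.52 (adjusted p = 0.0909) and Mvk by -0.46 (adjusted p = 0.155), and none of these passed.

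The split of row calls depended on the scaling. With arrays centred on their median, 1 gene was higher and 12 were lower, and the median of all transcripts moved to -0.49. With quantile normalization 5 were higher and 1 lower. The 35 genes had a median of -0.23 against -0.05 over all transcripts with the 75th percentile, and of -0.67 against -0.49 with median centring.

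Other cell types moved with the row. The neuron list stood at 5.90, 5.76, 6.32 and 6.69 in row 2 and 5.07, 5.68, 5.12 and 5.00 in row 1. The oligodendrocyte lineage list stood at 6.50, 6.47, 6.78 and 7.05 in row 2 and 5.77, 6.45, 5.33 and 5.30 in row 1. The astrocyte list stood at 8.95, 8.64, 8.60 and 8.49 in row 2 and 9.20, 8.97, 9.23 and 9.13 in row 1. The microglia list stood at 7.73, 7.73, 7.76 and 8.14 in row 2 and 7.47, 7.23, 7.47 and 7.61 in row 1. Row 2 thus had the higher neuron, oligodendrocyte and microglia signal and the lower astrocyte signal on every array. The part of cell makeup in the row differences was not tested.

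Of 54 further genes of sterol and lipid metabolism, grouped in 6 lists, 0 passed limma in neurons, in astrocytes by scanner file or by value table, or in the interaction. Between cell types, 22 were higher and 17 lower in astrocyte Klotho arrays, and 14 higher and 14 lower in astrocyte control arrays. The shares of all transcripts are those given above. Most lists held genes called in each direction.

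Genes of sterol export and its receptor LXR went both ways, with 4 of 7 higher and 3 lower in astrocyte Klotho arrays and 3 higher and 3 lower in control arrays. Nr1h3, the LXR alpha receptor, was higher in astrocyte control arrays by 4.75 ± 0.26 and Abca1, the cholesterol exporter, by 2.97 ± 0.42 (SE, adjusted p = 7.89e-07 and 0.000339, limma). Abcg4, an exporter found mainly in brain, was lower, by a log2 difference of -1.85 ± 0.26 (SE, adjusted p = 0.000307, limma). Abca1 averaged 6.01 ± 0.39 in astrocyte control arrays and 3.04 ± 0.88 in neuron control arrays (SD, n = 4 each).

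In uptake, storage and turnover, 3 of 8 genes were higher and 3 lower in astrocyte Klotho arrays, and 3 higher and 2 lower in control arrays. Ch25h, which makes an oxysterol, was higher by 6.10 ± 0.38 in control arrays (SE, adjusted p = 1.73e-06, limma), and Lipa, the lysosomal lipase, by 1.92 ± 0.26 (SE, adjusted p = 0.000263, limma). Vldlr, a lipoprotein receptor, was lower, by a log2 difference of -3.58 ± 0.22 and Lrp8, the related reelin receptor, by -1.29 ± 0.23 (SE, adjusted p = 1.55e-06 and 0.00150, limma).

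Among the partners of SREBP processing, 4 of 7 genes were higher and 0 lower in astrocyte Klotho arrays, and 1 was higher and 1 lower in control arrays. Erlin2, a protein of the endoplasmic reticulum membrane that works with the Insig complex, was higher by 2.26 ± 0.24 with Klotho and by 1.83 ± 0.21 in control (SE, adjusted p = 2.06e-05 and 7.76e-05, limma). Mbtps2, the protease that makes the last cut of SREBP, was lower in control arrays, at -2.04 ± 0.46 in astrocytes and -1.03 ± 0.63 in neurons (SD, n = 4 each, adjusted p = 0.0401, limma). Of 6 genes of other isoprenoids, 0 were higher in either comparison, and 3 were lower with Klotho and 2 in control.

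Of 15 other genes of fatty acid synthesis, 7 were higher and 4 lower in astrocyte Klotho arrays, and 4 higher and 3 lower in control arrays. Elovl2, which lengthens polyunsaturated chains, was lower in astrocyte control arrays by -4.79 ± 0.29 and Elovl4, which makes very long chains, by -3.86 ± 0.33 (SE, adjusted p = 1.51e-06 and 1.16e-05, limma). Acacb, the mitochondrial acetyl-CoA carboxylase, was higher by 3.26 ± 0.33 (SE, adjusted p = 3.73e-05, limma). In glycerolipid synthesis, 4 of 11 were higher and 4 lower with Klotho, and 3 higher and 3 lower in control, with Lpin3 at 3.95 ± 0.28 and Dgat2, which closes the triglyceride, at -3.14 ± 0.31 in control (SE).

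By array row, 10 of the 54 were higher and 9 lower in row 2, against the 20.9% and 24.9% of all transcripts. Lrp1, a lipoprotein receptor, was higher by 1.45 ± 0.23 and Mlxipl, the glucose-responsive factor ChREBP, by 1.56 ± 0.33 (SE, adjusted p = 0.00356 and 0.00617, limma). Npc2, which moves cholesterol out of lysosomes, was lower, by a log2 difference of -1.10 ± 0.23 and Nus1, a subunit of the dolichol-forming prenyltransferase, by -1.09 ± 0.23 (SE, adjusted p = 0.00534 and 0.00555, limma).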

How the data were processed

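RNA of 16 culture samples was hybridised to one-colour arrays from 200 ng of total RNA labelled with Cy3, per the labels' protocols. The authors' scanner files hold intensity values. Per the file headers, they come from array design 028005 (probe build NCBI37), extracted with protocol GE1_1200_Jun14 in Agilent Feature Extraction 12.0.3.1, which subtracts background within an array. The authors' value table, as deposited, states no unit and holds a score with a mean of 0 in each column, which equals the z-score of log2 intensity of a single array within 0.00502, the next best array differing by at least 1.67.

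The processed intensity was taken as log2, outlier spots were dropped, spots of a probe averaged, and each array centred on its 75th percentile over non-control probes. Each array has 62976 spots, 3671 of them controls, and 55681 probes. Of these, 28331 (50.9%) were named through a RefSeq accession and the GRCm38.p6 gene table. The brightest probe stood for a gene, which gave 36721 units, called transcripts here. A unit was tested if it was above background (at least 0.5 of its spots) on every array of 1 or both compared groups. Then lmFit and eBayes of limma 3.58.1 (R 4.3.3) were run over all units, with Benjamini and Hochberg adjustment and a threshold of 0.05. Python 3.11.15, numpy 2.4.6, pandas 2.3.3 and matplotlib 3.10.9 did the rest. The fit was tested on simulated data.

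Groups came from the sample titles and treatment labels. No value columns stayed unused (0). Precision is limited by the 4 arrays per group. Saturated spots numbered 0. Over all transcripts, log2 changes had a median SE of 0.17 (neurons), 0.33 (astrocytes, scanner file) and 0.30 (cell types, control arrays). For the 35 genes the median SE was 0.30, 0.32 and 0.32. In neurons the cholesterol arm had a median SE of 0.42, and up to 0.65. Array pairs of a group correlated with r of 0.957 to 0.992. Replicate numbers of the labels were checked by correlating deviations from group means. Neuron arrays of the same number correlated with r of 0.78, 0.17, 0.47 and 0.41 for numbers 1 to 4. Numbers 2 and 4 matched an array of another number better. Astrocyte arrays by scanner file had 0.72, 0.18, 0.53 and 0.62, each number matching its own best. The numbers did not pair the arrays by value table or across cell types. Alternatives covered background correction (normexp with offset 50 on the median signal and local background), scaling, filters, probe summary, blocks, single arrays left out and the value table.

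All 35 genes are reported, and of 54 further pathway genes those with the smallest p in each list. The members and lists were chosen with earlier results of these data known.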

Additional observations from a re-analysis of the deposited data

Results flagged for a closer look

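In 31 of 140 gene and group combinations of 4 arrays, 1 array stood apart from the other 3 by more than Dixon's critical value at the usual level (gap to the nearest array divided by the whole range). Chance gives about 1 in 20, and genes on the same array are not independent.

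On neuron Klotho replicate 1, the highest array, 21 genes stood apart. Among the regulators and sterol transfer the values were 0.892 for Scap, 0.872 for Insig1 and 0.853 for Stard4. In the mevalonate arm they were 0.908 for Hmgcs1, 0.875 for Mvk, 0.907 for Mvd and 0.899 for Fdps. From squalene to cholesterol they were 0.917 for Fdft1, 0.924 for Sqle, 0.991 for Lss, 0.899 for Cyp51, 0.890 for Tm7sf2, 0.910 for Msmo1, 0.966 for Nsdhl, 0.926 for Hsd17b7, 0.850 for Sc5d and 0.908 for Dhcr7. Among fatty acid genes they were 0.944 for Acaca, 0.929 for Fasn, 0.952 for Scd1 and 0.899 for Elovl6.

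On neuron control replicate 1, also the highest array, 3 genes stood apart, with 0.878 for Pmvk, 0.945 for Tm7sf2 and 0.834 for Scd2. Control replicate 2 lies between replicate 1 and the others for many genes, which lowers this ratio.

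On astrocyte control replicate 4, the lowest array, 6 genes stood apart, with 0.896 for Stard4, 0.872 for Hmgcs1, 0.884 for Msmo1, 0.920 for Sc5d, 0.842 for Fads1 and 0.896 for Fads2. By value table that array counts as Klotho. On astrocyte control replicate 3, the highest array, Dhcr7 stood apart with 0.863.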

How the results depend on the processing

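The 0 calls among the 35 genes for Klotho in neurons, for Klotho in astrocytes under either assignment and for the interaction held under each alternative that was run. With single arrays left out, the neuron median ranged from -0.39 to 0.09, the astrocyte median from 0.07 to 0.21 by scanner file and from -0.48 to -0.23 by value table, and the interaction median from 0.01 to 0.57. The count of genes called between cell types ranged from 17 to 21 with an array left out, and from 18 to 20 between control arrays and 19 to 20 between Klotho arrays under the other settings. By array row it ranged from 4 to 7 with an array left out. The row count was 13 with median centring, where the median of all transcripts moved to -0.49, and 5 to 8 under the other settings. Over all transcripts, the neuron count of 37 was 4028 without the background filter, 7 with normexp, 67 in the value table and 4 among transcripts above background on every array, and 18 to 56 with an array left out. The interaction count of 23 over all transcripts was 9 with normexp and 0 among transcripts above background on every array, and 17 to 168 with an array left out. Of 754 results for single called genes under alternatives, 712 kept direction and call, 42 lost the call and 0 turned direction. Calls lost under settings other than left-out arrays were, between control arrays, Acly with quantile normalization and Fasn without the filter (adjusted p = 0.0522), with the replicate block (0.0749) and by value table (0.0531). Between Klotho arrays they were Acly with quantile normalization and with the mean of all probes (0.0528), and Me1 by value table (0.102). By row they were Acaca and Srebf1 with median centring, Ebp with quantile normalization, and Mvk with quantile normalization, no filter, the mean of all probes, a fit of all 16 arrays and slide as a block (0.0541 to 0.155). With the replicate number as a block, which is not borne out across cell types, 18 genes were called between control arrays and 20 between Klotho arrays. That block changed no other count of the 35 genes. Dim probes and the 4 arrays per group limit small changes.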
